A study of Homo sapiens with 36 samples.

Results

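The mitochondrial ribosomal protein genes were taken from the gene FPKM table as the rows whose names start with MRPL or MRPS followed by a digit. Of 21950 genes 76 met this rule, 47 named MRPL for the large subunit and 29 named MRPS for the small subunit. The rule left out MRPL23-AS1, an antisense RNA with a hyphen in its name, and the pseudogenes MRPL42P5, MRPL45P2 and MRPS31P5. The libraries came from K562, a human erythroleukemia cell line, kept at an oxygen level of 21%, 5% or 1% and collected after 6 h, 24 h, 3 d and 6 d. Each of the 12 groups had 3 libraries, 36 in all. The labels name no genotype, transgene or drug. Cells were grown in DMEM in 6-well plates and passaged at 3 d. Between 3 d and 6 d, time and passage therefore cannot be told apart. Each oxygen level had incubators of its own, and oxygen level and incubator cannot be told apart. Nothing in the labels says whether replicates were separate cultures, so that the p-values below measure the spread between libraries, which may be technical. In bulk RNA a change in the make-up of the culture and a change of RNA per cell cannot be told apart either.

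Mitochondrial ribosomes sit in the matrix and translate the few mRNAs that mitochondrial DNA encodes, all of them for subunits of the respiratory chain and ATP synthase. Their ribosomal RNAs come from mitochondrial DNA, whereas every one of their proteins is encoded in the nucleus, made on cytosolic ribosomes and imported. Compared with bacterial ribosomes they hold less RNA and more protein, and many of the proteins have no bacterial counterpart. The names do not always give the right subunit: MRPS30 and MRPS18A are proteins of the large subunit, and MRPS36 is now regarded as a component of the 2-oxoglutarate dehydrogenase complex.

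All 76 genes were expressed well above the typical gene. Their mean level had a median of 113 FPKM, against 10.4 FPKM for the 10625 genes with a mean of at least 1 FPKM that were tested, and all 76 passed that filter. FPKM is scaled for transcript length, so levels can be compared between genes. The 3 highest were MRPL14, a protein of the face that meets the small subunit, at 464 FPKM, MRPL40 at 413 FPKM and MRPS21 at 399 FPKM. The 3 lowest were MRPL30 at 21.0 FPKM, MRPL19 at 20.4 FPKM and MRPL17 at 20.0 FPKM. The highest and the lowest level were 23.3-fold apart. The order of the levels was nearly the same in each group, with a Spearman correlation to 21% oxygen at 6 h from 0.932 for 1% oxygen at 3 d to 0.994 for 5% oxygen at 6 h. These correlations are over the 76 genes and share the same gene-specific biases.

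One library stood apart. Replicate 3 of 1% oxygen at 3 d had 7220 genes above 0 where the other 35 had 14512 to 19543, and it is called the shallow library. It listed 8 of the genes at 0 (MRPL1, MRPL2, MRPL23, MRPL35, MRPL52, MRPL53, MRPS12 and MRPS17), and no other library listed any of the 76 at 0. Results are given with all 36 libraries and again without it. Read counts are not in the tables, so depth is unknown. Total FPKM ranged from 535152 in the shallow library to 1171415 in replicate 3 of 21% oxygen at 24 h, which matters for the 24 h results. Defining markers of K562 were present, with a median of 216 FPKM for GATA1, an erythroid transcription factor, and 3980 FPKM for HBZ, the embryonic globin. Among markers of other blood cells, CD3E, MS4A1, CD14 and MPO had medians from 0.0602 to 0.142 FPKM, whereas PTPRC had 12, LYZ 24.0 and CD3D 85.6 FPKM. Of the last 3, which were the ones tested, 0 fell and 2 rose in 1% oxygen at 3 d without the shallow library. In that fit 25.1% of all genes rose and 53.7% passed in either direction. Their part in the results was not tested.

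Promoter sequences are shown because most of the genes fell together at 3 d. MRPS6 is shown beside them as the gene with the largest rise there. For 67 of the 76 genes RefSeq (GRCh38.p14) gave a window from 250 bases before to 50 bases after the start. The letters AAGATGGCG, the core bound by YY1, a factor known for mitochondrial genes, were found on either strand in 13 of the 67 (19.4%) and in 2.14% of the 27305 genes in the same table. The ETS-type letters CCGGAAGTG were in 5 (7.46%, against 2.81%), and the NRF1 palindrome, searched without mismatch, in 1 (1.49%, against 1.52%). The E-box CACGTG was in 9 (13.4%, against 8.77%), and the hypoxia response core ACGTG, which overlaps the E-box, in 24 (35.8%, against 24.9%). In the windows below capitals mark these letters: MRPL38 holds ETS and YY1 letters, MRPS30 YY1 letters, MRPS18B YY1 letters and ACGTG, MRPL36 YY1, E-box and ACGTG, and MRPS6 none. The windows lie at chr17:75904835-75905134 (minus strand) for MRPL38, chr5:44808697-44808996 (plus) for MRPS30, chr5:1799788-1800087 (minus) for MRPL36, chr6:30617590-30617889 (plus) for MRPS18B and chr21:34073328-34073627 (plus) for MRPS6, each written 5′ to 3′ along the gene.
MRPL38: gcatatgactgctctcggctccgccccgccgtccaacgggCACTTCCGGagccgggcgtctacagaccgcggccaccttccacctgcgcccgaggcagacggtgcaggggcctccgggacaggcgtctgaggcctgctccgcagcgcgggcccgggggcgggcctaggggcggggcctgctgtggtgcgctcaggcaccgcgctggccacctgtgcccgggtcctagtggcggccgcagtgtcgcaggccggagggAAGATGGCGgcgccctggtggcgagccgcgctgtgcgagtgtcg
MRPS30: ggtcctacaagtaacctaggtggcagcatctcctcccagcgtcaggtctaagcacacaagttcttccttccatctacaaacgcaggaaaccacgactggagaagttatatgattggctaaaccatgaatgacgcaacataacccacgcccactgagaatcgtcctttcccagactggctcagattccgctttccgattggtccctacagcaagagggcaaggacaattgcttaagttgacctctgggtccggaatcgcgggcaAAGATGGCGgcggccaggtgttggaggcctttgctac
MRPL36: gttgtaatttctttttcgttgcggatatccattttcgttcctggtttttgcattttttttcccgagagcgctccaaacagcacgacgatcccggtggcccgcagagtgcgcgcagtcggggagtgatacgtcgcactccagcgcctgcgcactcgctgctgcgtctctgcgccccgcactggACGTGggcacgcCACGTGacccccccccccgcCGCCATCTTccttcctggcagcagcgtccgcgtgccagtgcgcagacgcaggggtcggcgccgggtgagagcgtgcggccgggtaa
MRPS18B: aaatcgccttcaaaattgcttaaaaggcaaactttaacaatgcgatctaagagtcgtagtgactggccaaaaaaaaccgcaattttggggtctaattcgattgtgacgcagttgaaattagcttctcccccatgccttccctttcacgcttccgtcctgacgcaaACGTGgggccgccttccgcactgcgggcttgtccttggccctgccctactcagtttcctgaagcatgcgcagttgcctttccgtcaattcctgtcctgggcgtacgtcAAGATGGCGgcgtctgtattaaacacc
MRPS6: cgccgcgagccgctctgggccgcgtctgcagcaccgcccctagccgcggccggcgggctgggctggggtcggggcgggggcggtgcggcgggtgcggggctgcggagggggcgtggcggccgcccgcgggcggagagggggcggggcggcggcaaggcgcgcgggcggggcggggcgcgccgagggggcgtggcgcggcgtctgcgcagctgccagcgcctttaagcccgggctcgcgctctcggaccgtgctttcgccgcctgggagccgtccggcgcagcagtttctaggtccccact
A match is a run of letters and not a shown binding site. The 27305 genes include many beyond the 10625 tested, and the shares among the genes tested were not computed. MRPL38, MRPS30, MRPL36 and MRPS18B all hold the YY1 letters, which most of the 67 genes lack. The 13 genes with the YY1 letters had a median log2 difference of -0.73 between 1% and 21% oxygen at 3 d without the shallow library, and the other 54 had -0.76. MRPS10, which rose, is one of the 13.

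In 1% oxygen the genes were level with 21% oxygen at 6 h, lower at 24 h, lowest at 3 d and only slightly lower at 6 d. The plot of library medians shows this for the 76 genes together. Relative to the gene means in 21% oxygen at 6 h, on the log2(FPKM + 1) scale used throughout, the 1% libraries had medians of 0.01, 0.02 and 0.02 at 6 h, and of -0.28, -0.18 and -0.36 at 24 h. At 3 d they stood at -0.88, -0.79 and, in the shallow library, -1.62, and at 6 d at -0.35, -0.36 and -0.23. In 5% oxygen the medians at 3 d were -0.56, -0.55 and -0.51, and at 6 d they were -0.55, -0.60 and -0.56. Libraries of 21% oxygen stayed between -0.20 and 0.14, apart from replicate 3 at 24 h with 0.50. The low-oxygen libraries of 3 d and 6 d therefore lay below all 12 libraries of 21% oxygen.

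**Figure D1:**
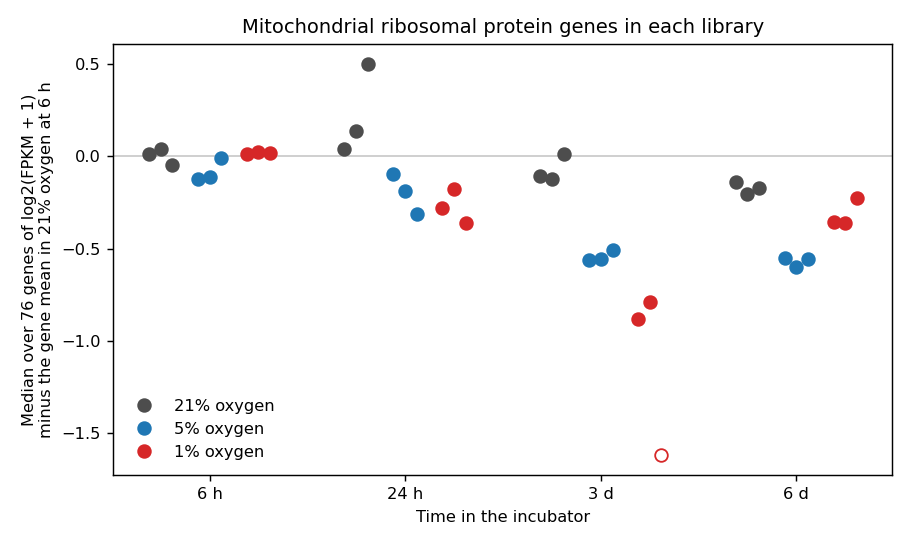
Each point is 1 library: the median over 76 genes of log2(FPKM + 1) minus the gene mean in 21% oxygen at 6 h (vertical axis), by time (horizontal axis) and oxygen level (colour). The open point is the shallow library at -1.62, and the highest point, at 0.50, is replicate 3 of 21% oxygen at 24 h.

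At 6 h in 1% oxygen 0 of the 76 genes passed the test (limma, adjusted p under 0.05 over all genes tested, here and below), as did 0% of all genes. Their median log2 difference from 21% oxygen was 0.01. At an unadjusted p under 0.05 the count was 0 with all libraries and 2 without the shallow one. The share of all genes at that unadjusted cut was not computed, here and below.

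At 24 h in 1% oxygen 40 genes fell and 1, MRPS26, rose, where 9.66% of all genes fell, 6.56% rose and 16.2% passed in either direction. Without the shallow library 70 fell and 2, MRPS26 and MRPL12, rose, against 22.1% of all genes lower and 38.7% in either direction. The median log2 difference was -0.46, while that of all genes was -0.004. The largest falls by the naming rule were MRPL33 (-0.97, SE 0.23, adjusted p 0.0043), MRPS18C, the small-subunit form of bacterial protein S18 (-0.93, SE 0.26, adjusted p 0.014), MRPS36 (-0.89, SE 0.18, adjusted p 0.0012) and MRPL46 of the central protuberance (-0.81, SE 0.18, adjusted p 0.0024). MRPL33 had 279.7, 293.6 and 501.3 FPKM in 21% oxygen and 169.2, 199.0 and 160.4 FPKM in 1% oxygen. The groups did not overlap, and replicate 3 of 21% oxygen was far above its group.

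That library bears on all of the 24 h results. Without it 14 of the 76 genes fell and 1 rose in 1% oxygen, where 6.05% of all genes passed in either direction. Without it and the shallow library, a choice made after the data were seen, 56 fell and 1 rose with a median of -0.35, where 24% of all genes passed and their median was -0.01. After rescaling to TPM, which divides each library by its total FPKM, 3 genes fell and 4 rose, with 2374 of all 10625 past the threshold, and the median was -0.002, with all genes shifted to 0.39, so that the genes lay 0.39 below the median of all genes, where they lay 0.46 below it in FPKM. The share of total FPKM that the 76 genes took was 1.58%, 1.48% and 1.55% in 21% oxygen at 24 h and 1.47%, 1.48% and 1.47% in 1% oxygen. Cytosolic ribosomal protein genes, a list of 78, moved with this library as well: their median there was 0.79 above 21% oxygen at 6 h, and with all 36 libraries 74 of them fell in 1% oxygen at 24 h, against 9.66% of all genes, with a median difference of -0.69. The fall at 24 h was thus measured in FPKM, and after rescaling to TPM 39 of the 76 differences were negative.

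At 3 d in 1% oxygen 71 of the 76 genes fell and 2 rose, where 36.3% of all genes fell, 16.9% rose and 53.2% passed in either direction. In the fit that leaves out the shallow library 68 fell and 2 rose, and 28.6% of all genes fell, 25.1% rose and 53.7% passed in either direction. In that fit the median log2 difference of the genes was -0.72 and that of all genes -0.02. With all 36 libraries it was -0.99, and -0.32 for all genes. In 72 of the 76 genes (94.7%) both remaining 1% libraries lay below all 21% libraries, against 36.9% of all genes tested. The result was present in shares of total FPKM too, with 1.55%, 1.5% and 1.59% in 21% oxygen and 0.984%, 1.04% and, in the shallow library, 0.882% in 1% oxygen. After rescaling to TPM 64 fell and 2 rose, with 5087 of all 10625 genes past the threshold. RNAs that stay in the nucleus moved in the same group: NEAT1, KCNQ1OT1 and MALAT1, the 3 tested of a list of 4, all rose there, with a median of 2.00 without the shallow library, and their part in the result was not tested.

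**Figure D2:**
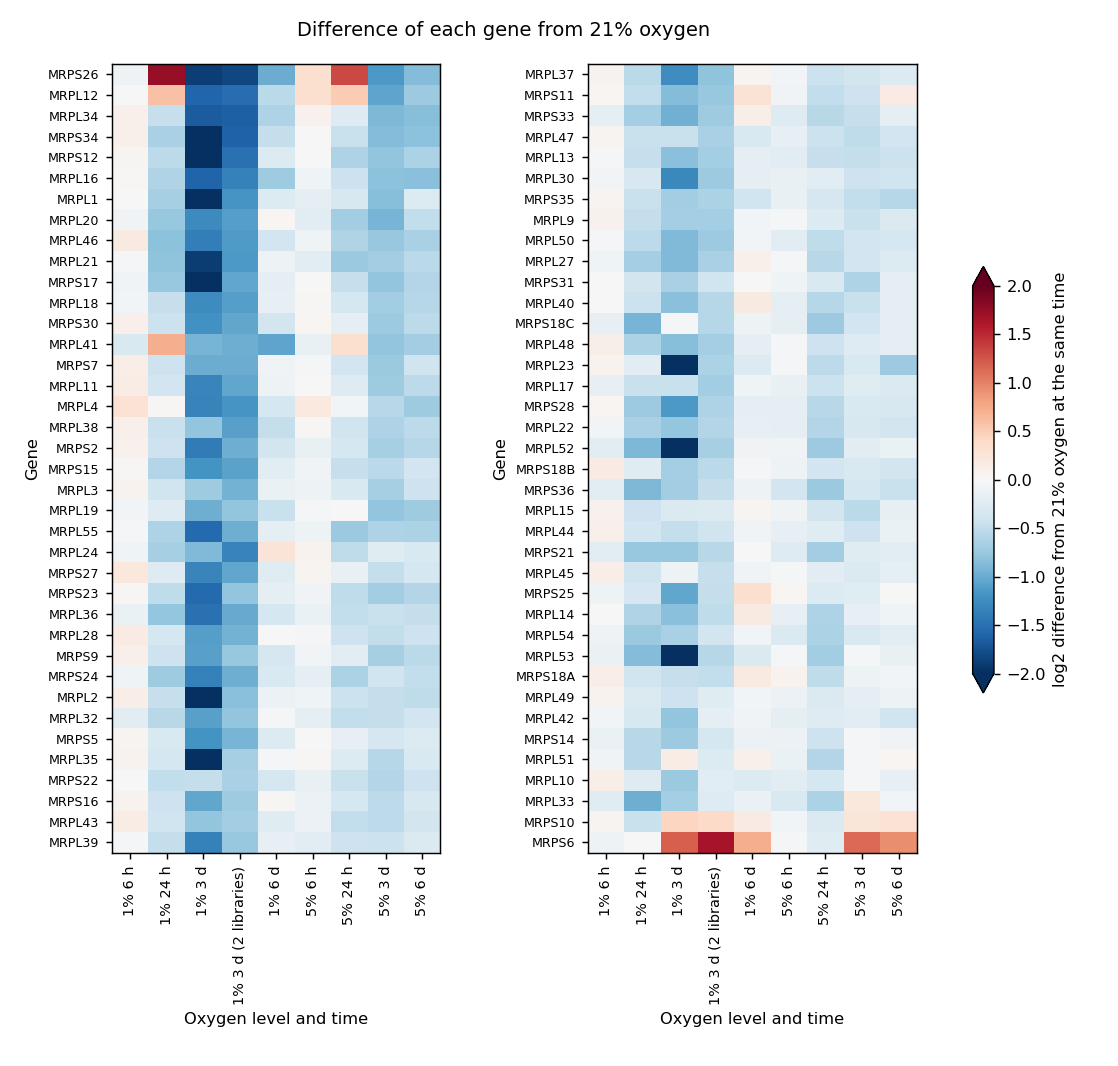
Each row is 1 of the 76 genes and each column 1 comparison with 21% oxygen at the same time, with the log2 difference as colour (blue lower, red higher, clipped at the ends of the scale); the column marked 2 libraries leaves out the shallow library. Genes are ordered by the sum of the 1% (2 libraries) and 5% differences at 3 d, from MRPS26 and MRPL12 at the top left to MRPS10 and MRPS6 at the bottom right, the only 2 that rose at 3 d in both oxygen levels.

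Among the proteins with bacterial counterparts, MRPL34 gave the clearest fall. It had 127.5, 136.1 and 151.5 FPKM in 21% oxygen at 3 d and 40.19, 47.74 and 40.68 FPKM in 1% oxygen, and its shallow value lay within the range of the other 2. The log2 difference was -1.67 (SE 0.10, adjusted p 7.4e-13) and -1.63 without the shallow library. MRPL16, a protein beside the tRNA path of the large subunit, went from 274.8, 264.4 and 297.5 FPKM to 110.6, 107.6 and, in the shallow library, 64.15 FPKM, a difference of -1.60 (SE 0.13, adjusted p 2.0e-10), or -1.34 without that library. For both genes the groups did not overlap.

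MRPS12, the small-subunit protein at the decoding centre, shows what the shallow library does to single genes. Its values in 1% oxygen at 3 d were 61.2, 84.78 and 0 FPKM, against 193.1, 190.0 and 231.4 FPKM in 21% oxygen. The log2 difference was -3.55 (SE 0.81, adjusted p 0.00071) with that 0 and -1.49 (SE 0.13, adjusted p 1.0e-10) without it. MRPS17, MRPL2 and MRPL1, the next largest falls with all libraries, likewise hold a 0 there. Their differences were -3.03, -2.71 and -2.70 with all libraries and -1.03, -0.84 and -1.18 without the shallow one, and each passed in both fits. MRPL1, which forms the mobile stalk where spent tRNA leaves, had 52.68, 53.24 and 49.69 FPKM in 21% oxygen and 23.78, 20.83 and 0 FPKM in 1% oxygen.

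Genes of each structural group fell at 3 d. The values that follow leave out the shallow library and stand beside 28.6% of all genes that fell and 25.1% that rose in that fit. Of 30 large-subunit genes with bacterial counterparts 28 fell (median -0.82), and of 19 specific to mitochondria 15 fell (-0.67). In the small subunit 14 of 16 with bacterial counterparts fell (-0.76) and 2 rose, and all 10 specific to mitochondria fell (-0.68). All 6 genes of the central protuberance fell (median -0.88, from -1.14 to -0.58), among them MRPL18 with -1.10 and MRPL46 with -1.14. All 7 genes around the exit tunnel fell as well (median -0.64, from -1.33 to -0.40). Of the 5 genes of the stalk that contacts the translation factors 3 fell, and MRPL12, its multicopy protein, reached -1.52. No test compared these groups with each other.

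Humans have 3 genes related to bacterial protein S18, and all fell at 3 d without the shallow library. MRPS18A of the large subunit had 102.7, 98.66 and 118.2 FPKM in 21% oxygen and 65.82, 85.3 and, in the shallow library, 79.8 FPKM in 1% oxygen (-0.50, SE 0.14, adjusted p 0.0045). MRPS18B had 160.5, 158.3 and 172.3 FPKM against 107.3, 116.9 and 83.29 FPKM (-0.54, SE 0.11, adjusted p 0.00011). For MRPS18C the shallow library went the other way, with 85.34 FPKM beside 31.19 and 23.64 FPKM, and 35.65, 45.05 and 42.4 FPKM in 21% oxygen. The difference was -0.03 (adjusted p 0.93) with it and -0.57 (adjusted p 0.0058) without it, so the fall of MRPS18C rests on leaving it out.

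By 6 d in 1% oxygen most of the difference was gone: 7 genes fell and 1 rose, against 5.04% of all genes lower, 5.84% higher and 10.9% in either direction. With the shallow library left out 17 fell and 2 rose, against 16.1% lower and 29.9% in either direction. The median log2 difference was -0.13 (all genes -0.03). The largest falls were MRPL41 (-1.06, SE 0.31, adjusted p 0.025), MRPL16 (-0.72, SE 0.13, adjusted p 0.00040), MRPL34 (-0.62, SE 0.10, adjusted p 0.00012) and MRPL38 of the central protuberance (-0.48, SE 0.16, adjusted p 0.049). MRPL34 had 140.0, 129.3 and 132.9 FPKM in 21% oxygen and 86.28, 80.64 and 94.61 FPKM in 1% oxygen. Its 6 d values lay between its 3 d values in 1% oxygen and those of 21% oxygen. The part of the passage at 3 d in the change from 3 d to 6 d was not tested. Markers of the erythroid line also moved at 6 d: 8 of 10 rose and 0 fell without the shallow library (median 1.00), against 13.8% of all genes higher, and their part in the result was not tested.

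The difference between 1% and 21% oxygen varied with time in 60 of the 76 genes (moderated F test, adjusted p under 0.05) and in 70 without the shallow library, where 40.3% and 63.3% of all genes did. The 4 smallest adjusted p values belonged to MRPL34 (5.56e-09), MRPS7, a protein of the small-subunit head (7.74e-08), MRPL18 (1.19e-06) and MRPL16 (1.88e-06). The log2 differences of MRPS7 at 6 h, 24 h, 3 d and 6 d were 0.13, -0.41, -0.999 and -0.08. Its values at 3 d were 155.9, 146.9 and 170.3 FPKM in 21% oxygen and 79.4, 77.22 and 78.21 FPKM in 1% oxygen, and at 6 d 140.3, 124.1 and 128.3 FPKM and 117.5, 126.3 and 128.0 FPKM. The groups were apart at 3 d and overlapped at 6 d.

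Averaged over the 4 times, 59 genes fell and 1 rose in 1% oxygen, where 19% of all genes fell, 12.4% rose and 31.4% passed in either direction. Leaving out the shallow library, 72 fell and 1 rose, where 26% fell and 49.1% passed. The median difference was -0.40, and -0.35 without that library. By this average the largest falls were MRPS12 (-1.07), MRPL1 (-0.91), MRPS34, a small-subunit protein specific to mitochondria (-0.85), and MRPL16 (-0.72), and without the shallow library they were -0.55, -0.54, -0.66 and -0.66.

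**Figure D3:**
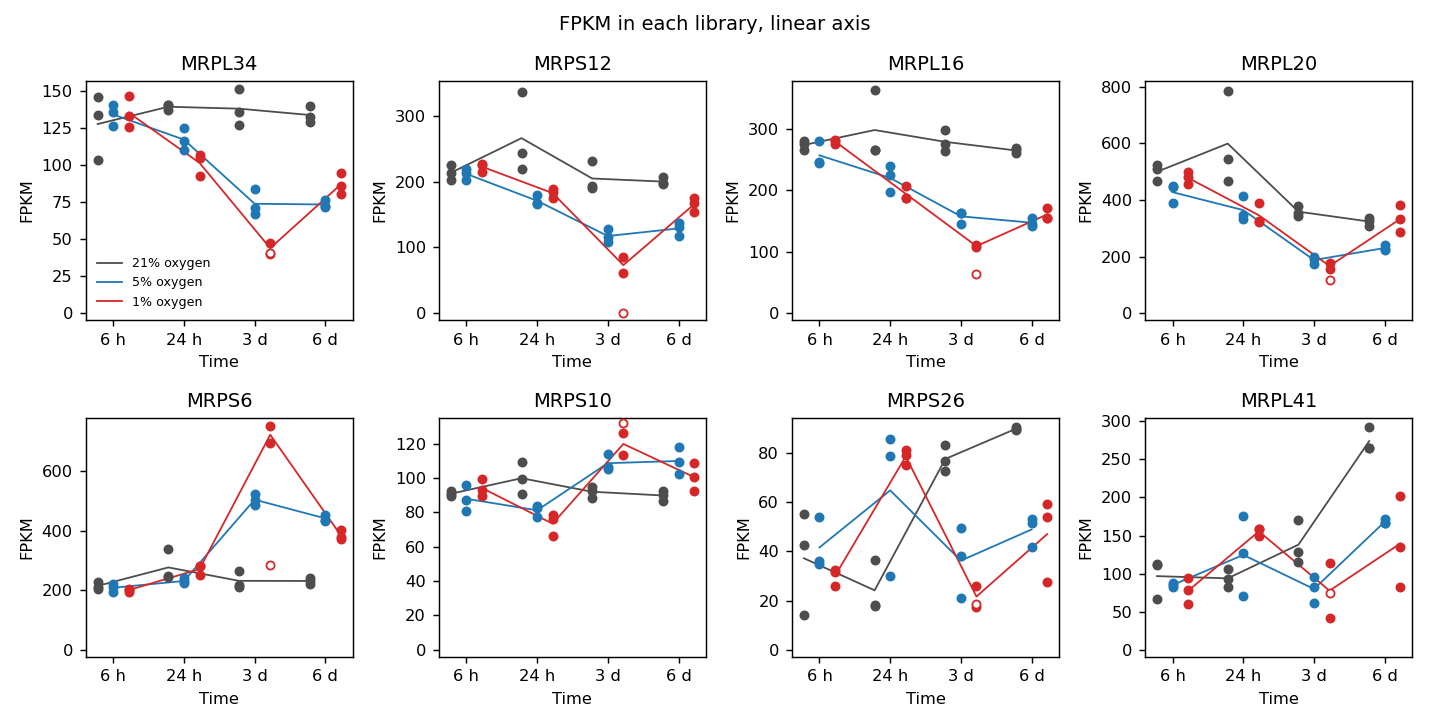
FPKM (vertical axis, linear) of 8 genes in each library by time (horizontal axis) and oxygen level (colour); lines join group means and the open point is the shallow library, which the means leave out. MRPL34, MRPS12, MRPL16 and MRPL20 are lowest at 3 d in 1% oxygen, MRPS6 and MRPS10 are highest there, and MRPS26 and MRPL41 scatter within groups and are higher at 6 d than at 6 h in 21% oxygen.

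In 5% oxygen the genes were also lower in FPKM from 24 h on, and the difference was still present at 6 d. The count at 24 h changed with the scaling and with replicate 3 of 21% oxygen. The 5% and 1% comparisons share their 21% libraries, so that the 2 sets of values are not independent. At 6 h 0 genes passed, as did 0% of all genes, and 1 had an unadjusted p under 0.05 (6 without the shallow library). At 24 h 29 fell and 1, MRPS26, rose, against 6.99% of all genes lower, 2.39% higher and 9.38% in either direction. When the shallow library was left out 64 fell and 1 rose, against 18.7% and 28.3%, and without both that library and replicate 3 of 21% oxygen 31 fell and 0 rose, where 8.98% of all genes passed. Leaving out that replicate alone left 0 genes past the limma threshold, where 0.442% of all genes passed it. It left 28 of the 76 at an unadjusted p under 0.05, and the share of all genes at that cut was not computed. After rescaling to TPM 0 fell and 4 rose, with 1721 of all 10625 genes past the threshold. After quantile normalization 1 fell and 2 rose, with 293 of all 10625 genes past it.

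At 3 d in 5% oxygen 34 genes fell and 2 rose, against 13.6% of all genes lower, 8.25% higher and 21.8% in either direction. Without the shallow library, which is in neither of the groups compared but widens the common estimate of the spread, 59 fell and 2 rose, against 29.4% and 45.1%. The median difference was -0.47, beside -0.10 for all genes. The largest falls were MRPS26 (-1.15, SE 0.39, adjusted p 0.033), MRPL12 (-1.06, SE 0.21, adjusted p 0.00032), MRPL20, which binds the ribosomal RNA early in assembly (-0.93, SE 0.14, adjusted p 1.7e-05), and MRPL34 (-0.90, SE 0.10, adjusted p 2.1e-07). MRPL20 had 342.1, 354.8 and 379.5 FPKM in 21% oxygen and 173.0, 199.9 and 190.3 FPKM in 5% oxygen. In 1% oxygen it had 176.0, 157.6 and, in the shallow library, 115.4 FPKM, and the first of these lay within the 5% range.

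At 6 d in 5% oxygen 23 genes fell and 2 rose, against 7.59% of all genes lower, 7.24% higher and 14.8% in either direction, and without the shallow library 49 fell and 2 rose, against 21.7% and 36.9%. The median difference was -0.37 (all genes -0.06). MRPL34 had 76.55, 72.34 and 71.69 FPKM against 140.0, 129.3 and 132.9 FPKM in 21% oxygen (-0.86, SE 0.10, adjusted p 6.5e-07). MRPL16 fell by 0.84, MRPL12 by 0.73 and MRPL19 by 0.71 on the log2 scale. After rescaling to TPM 10 fell and 2 rose, with 1035 of all 10625 genes past the threshold. Averaged over the 4 times 52 fell and 1 rose in 5% oxygen, against 15% of all genes lower, 9.21% higher and 24.2% in either direction, and without the shallow library 69 fell and 1 rose, against 30.3% and 48.5%. The largest falls of that average were MRPL20 (-0.58), MRPL21 (-0.55), MRPL16 (-0.55) and MRPS34 (-0.53).

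Set against each other in FPKM, the median of the genes was lower in 1% oxygen at 3 d and higher there at 6 d. At 6 h and at 24 h 0 genes differed between 1% and 5% oxygen by the limma test, where 0.0471% and 0.744% of all genes did (0.0188% lower and 0.0282% higher at 6 h, 0.0753% and 0.668% at 24 h). At an unadjusted p under 0.05 the counts were 4 and 3. Leaving out the shallow library, 1 was higher at 6 h and 0 differed at 24 h, where 12 and 10 had an unadjusted p under 0.05. At 3 d 53 genes were lower and 1 higher in 1% oxygen, against 23.2% of all genes lower, 13.4% higher and 36.6% in either direction. With that library out 31 were lower and 2 higher, against 10.4% and 26.9%, and the median went from -0.57 to -0.31. After rescaling to TPM, with all libraries, 28 were lower and 4 higher, with 3259 of all 10625 genes past the threshold. The shares of total FPKM overlapped at 3 d. They were 0.956%, 1.15% and 1.05% in 5% oxygen and 0.984%, 1.04% and, in the shallow library, 0.882% in 1% oxygen. MRPL34 was lower in both fits (-0.77, adjusted p 2.2e-05, and -0.74, adjusted p 5.1e-05), and so was MRPS12 (-2.76 and -0.69). MRPL53, MRPL52 and MRPS17, which hold a 0 in the shallow library, passed with it (-2.32, -2.32 and -2.24) and not without it (-0.52, -0.47 and -0.25). MRPL15 was higher in 1% oxygen (0.25, adjusted p 0.030).

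At 6 d 4 genes were higher in 1% than in 5% oxygen and 0 lower, against 4.72% of all genes higher, 3.9% lower and 8.61% in either direction. The count of 4 was near the share of all genes. The median log2 difference was 0.21 (all genes 0.03). In the fit without the shallow library 26 were higher and 0 lower, against 16.1% and 27.5%. After rescaling to TPM 1 was higher, with 579 of all 10625 genes past the threshold. The 4 with all libraries in FPKM were MRPL20 (0.52), MRPL28 (0.43), MRPL18 (0.40) and MRPS7 (0.33). MRPL20 had 332.6, 285.7 and 380.8 FPKM in 1% oxygen and 239.2, 223.4 and 228.4 FPKM in 5% oxygen. In 43 of the 76 genes (56.6%) all 3 libraries of 1% oxygen lay above all 3 of 5%, where 26.8% of all genes had that order.

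MRPS6, whose bacterial counterpart is a protein of the small-subunit platform, ran against the rest. At 3 d it had 212.7, 218.6 and 264.0 FPKM in 21% oxygen, 486.8, 503.4 and 523.4 FPKM in 5% oxygen and 693.4, 751.9 and, in the shallow library, 283.8 FPKM in 1% oxygen. Leaving out the shallow library the 3 groups were in order with no overlap. The log2 difference of 1% from 21% oxygen was 1.19 (SE 0.20, adjusted p 1.6e-05), and 1.64 without that library, and that of 5% was 1.13 (SE 0.20, adjusted p 8.3e-05). At 6 d the differences were 0.73 (adjusted p 0.014) in 1% and 0.93 (adjusted p 0.0012) in 5% oxygen. At 6 h the values lay between 194.3 and 226.5 FPKM in all 9 libraries.

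MRPS6 overlaps SLC5A3, the gene of a sodium-coupled myo-inositol transporter, on the same strand. In GENCODE v29 the exons of the genes share 273 bases, of 4299 exonic bases for MRPS6 and 11576 for SLC5A3, so that the counting of reads in the shared bases could split them between the genes. SLC5A3, looked up after the values of MRPS6 were seen, moved in the same groups. It had 4.47, 5.50 and 4.09 FPKM in 21% oxygen at 3 d, 23.7, 19.6 and 12.8 FPKM in 5% oxygen and 50.6, 46.7 and, in the shallow library, 45.0 FPKM in 1% oxygen. The log2 difference in 1% oxygen was 3.10 (SE 0.16, adjusted p 1.1e-14), and at 6 d it was 1.01 (adjusted p 4.3e-05). The rise of MRPS6 is therefore uncertain as a measure of the mRNA for the ribosomal protein, and the part of SLC5A3 in it was not tested. The transcript table lists 1 transcript for MRPS6.

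MRPS10, a protein of the small-subunit head, was the other gene that rose at 3 d. It had 88.59, 92.5 and 94.96 FPKM in 21% oxygen, 105.5, 106.6 and 113.8 FPKM in 5% and 113.6, 126.1 and, in the shallow library, 131.8 FPKM in 1% oxygen. Both low-oxygen groups lay above 21% oxygen with no overlap, by 0.42 in 1% (SE 0.08, adjusted p 0.00016) and 0.24 in 5% oxygen (adjusted p 0.041). At 24 h it had fallen in 1% oxygen by 0.44 on the log2 scale (adjusted p 0.00085).

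Without MRPS6 the balance of the subunits hardly moved. The FPKM sum of the genes named MRPS was between 0.607 and 0.776 of the sum of those named MRPL over 35 libraries, and between 0.570 and 0.619 when MRPS6 was left out. The sums rest on names, so that MRPS30 and MRPS18A count with the wrong subunit.

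MRPS26, MRPL41, MRPL53 and MRPL12 had the widest ranges within a group. In 21% oxygen at 6 h MRPS26, specific to the mitochondrial small subunit, had 14.13, 42.35 and 55.04 FPKM, a 3.9-fold range within 1 group, and MRPL12 had 63.67, 132.7 and 166.4 FPKM. The range of MRPL12 was 2.61-fold. MRPL41 had a 2.74-fold range in 1% oxygen at 3 d, and MRPL53, a protein of the stalk, 2.66-fold in 21% oxygen at 24 h. In 21% oxygen MRPL41 went from 67.24, 110.8 and 112.2 FPKM at 6 h to 292.1, 265.3 and 264.3 FPKM at 6 d (log2 difference 1.53, SE 0.31, adjusted p 0.0015), and MRPS26 rose by 1.45 on the log2 scale (adjusted p 0.015). At 24 h MRPS26 was the 1 gene that rose in 1% oxygen, from 36.47, 17.84 and 18.17 FPKM to 81.05, 75.13 and 79.26 FPKM (1.74, SE 0.39, adjusted p 0.0030). At 3 d it fell, from 83.24, 76.58 and 72.61 FPKM to 17.35, 25.92 and 18.68 FPKM (-1.88, adjusted p 0.00028).

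Of these 4 genes MRPS26, MRPL41 and MRPL12 are rich in G and C, and MRPL53 is not (52.3% GC). Over the 75 genes with a reference transcript it ran from 35% to 71.9% with a median of 50.3% (49.6% over 18264 genes). The 12 genes of at least 60% GC, among them MRPS26 (63.4%), MRPL12 (64.6%) and MRPL41 (71.9%), had a median difference of -1.03 in 1% oxygen at 3 d without the shallow library, and the other 63 had -0.69. At 24 h the medians were -0.39 and -0.46. Across the 75 genes Pearson's r between GC content and the difference was -0.37 at 3 d (Spearman's rho -0.36) and 0.35 at 24 h, where Spearman's rho was 0.12. All points come from the same libraries, so these correlations are descriptions. The part of GC content in the results was not tested.

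**Figure D4:**
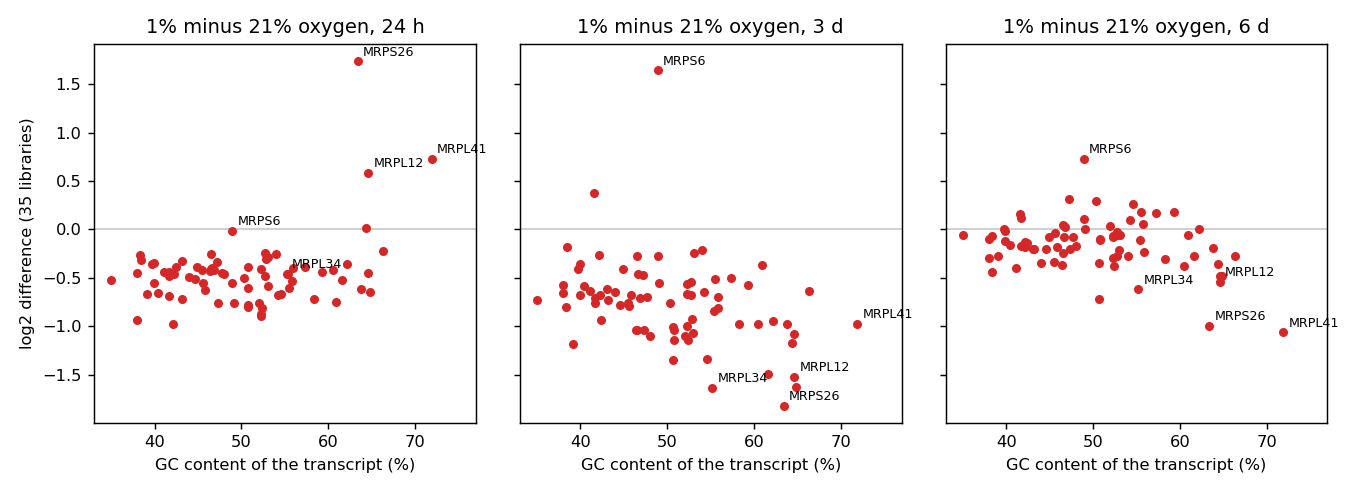
GC content of the reference transcript (horizontal axis, percent) against the log2 difference of 1% from 21% oxygen without the shallow library (vertical axis) for 75 genes at 24 h, 3 d and 6 d. MRPS26, MRPL12 and MRPL41, at the GC-rich end, lie above the others at 24 h and below most at 6 d, while MRPS6 and MRPS10 are the 2 genes above 0 at 3 d.

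In 21% oxygen alone the median log2 differences from 6 h were 0.23 at 24 h, -0.07 at 3 d and -0.17 at 6 d. Those of all genes were 0.03, 0.03 and 0.02. The value at 6 d was further from 0 than the -0.13 of 1% against 21% oxygen at 6 d. In 43 of the 76 genes (56.6%) all 3 libraries at 6 d lay below all 3 at 6 h, where 22.1% of all genes had that order. At 24 h against 6 h 0 of 76 passed by limma, with 0.132% of all genes (0.0847% lower, 0.0471% higher), 9 had an unadjusted p under 0.05, and without the shallow library 4 rose, with 2.43%. At 3 d 1 gene, MRPL12, rose (0.77, adjusted p 0.028), with 3.42% of all genes higher, 1.19% lower and 4.6% in either direction, and without the shallow library 7 fell and 3 rose, with 18.1%. At 6 d 9 fell and 3 rose, with 3.24% of all genes lower, 7.89% higher and 11.1% in either direction, and without that library 23 fell and 3 rose, with 29.3%. The largest falls at 6 d were MRPS11 (-0.86, adjusted p 0.00010), MRPS18C (-0.79, adjusted p 0.0498), MRPL54 (-0.65) and MRPL20 (-0.62). MRPS11 had 65.96, 70.24 and 62.67 FPKM at 6 h and 37.61, 35.63 and 34.92 FPKM at 6 d.

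Other genes of mitochondrial gene expression were taken as lists, and their counts at 3 d in 1% oxygen are given without the shallow library, beside 28.6% of all genes lower. Of 7 mitochondrial ribosomal proteins with other names all 7 fell (median -0.81), among them DAP3, a GTP-binding protein of the small subunit (-0.44, adjusted p 9.2e-05), and ICT1, a peptidyl-tRNA hydrolase built into the large subunit (-0.81, adjusted p 5.6e-06). With all 36 libraries ICT1 did not pass (-0.41, adjusted p 0.078). Of 24 assembly factors 18 fell and 1 rose (median -0.72), led by TFB1M, which methylates the small ribosomal RNA (-1.33), RPUSD4, a pseudouridine synthase (-1.09), and MALSU1, which holds the subunits apart (-0.999).

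Of 14 translation factors 8 fell (median -0.44). TUFM, the mitochondrial elongation factor Tu, had 426.5, 425.8 and 460.0 FPKM in 21% oxygen and 173.0, 188.5 and 179.3 FPKM in 1% oxygen at 3 d (-1.27 with and without the shallow library, adjusted p 5.0e-14 with it). TSFM, its exchange factor, fell by 1.05 and GFM1, elongation factor G, by 1.00 on the log2 scale. Of 18 genes of mitochondrial DNA expression 15 fell (median -0.82), among them TFAM, which packs mitochondrial DNA and starts its transcription (-0.55, adjusted p 1.6e-05), and LRPPRC, which stabilises mitochondrial mRNAs (-0.70, adjusted p 0.0053). MYC, a regulator of ribosome production, fell as well (-0.77, adjusted p 2.8e-09). Other regulators that were fitted, among them NRF1 and YY1, are not reported here, and MYC does not stand for them.

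The genes of complex I, some of whose partner subunits are made on these ribosomes, and those of the cytosolic ribosome are given side by side with them for 1% oxygen, without the shallow library. In that fit 22.1%, 28.6% and 16.1% of all genes fell at 24 h, 3 d and 6 d, and 16.6%, 25.1% and 13.8% rose. Of 37 complex I subunits 34 fell at 24 h (median -0.64), 25 at 3 d (-0.59) and 2 at 6 d, where 2 rose and the median was 0.02. Of 78 cytosolic ribosomal proteins 75 fell at 24 h (-0.69), 11 at 3 d (-0.10) and 0 at 6 d, where 18 rose (0.26). The 76 mitochondrial genes had medians of -0.46, -0.72 and -0.13 at these times. The 24 h values include replicate 3 of 21% oxygen. Relative to 21% oxygen at 6 h, that library had medians of 0.50 for the 76 genes, 0.72 for complex I and 0.79 for the cytosolic list. Replicates 1 and 2 had 0.04 and 0.14 for the 76 genes, -0.06 and 0.20 for complex I, and -0.09 and 0.23 for the cytosolic list. The order of the lists at 24 h without replicate 3 was not tested. The lists share the same libraries, and no test compared them.

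**Figure D5:**
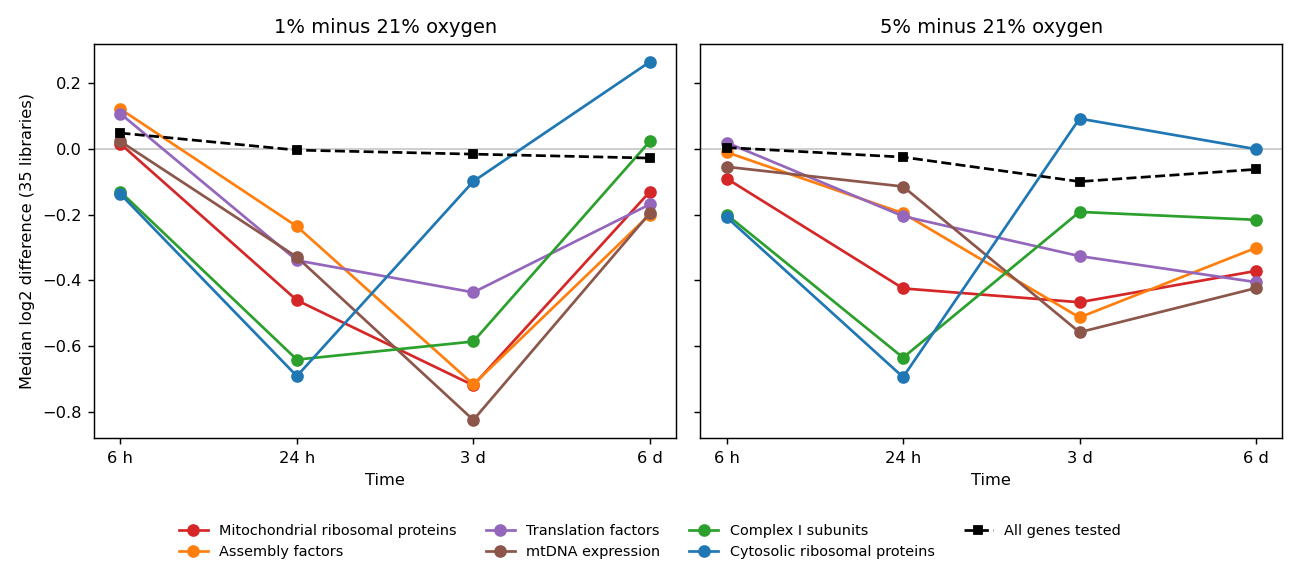
Median log2 difference from 21% oxygen (vertical axis) by time (horizontal axis) for the 76 genes, 5 other lists and all genes tested, without the shallow library, for 1% (left) and 5% oxygen (right). At 3 d in 1% oxygen the mitochondrial ribosomal proteins are at -0.72 and the cytosolic ribosomal proteins at -0.10. At 24 h the order of these lists is the opposite, -0.46 and -0.69, with replicate 3 of 21% oxygen, the highest library for both lists, included.

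Many of the genes sit back to back with a neighbour. In GENCODE v29 28 of the 76 (36.8%) have a protein-coding gene on the opposite strand whose start lies within 1000 bases, against 13.0% of all protein-coding genes. MRPL46 and MRPS11 form such a pair with starts 34 bases apart. Both fell in 1% oxygen at 3 d without the shallow library, by 1.14 and 0.75 on the log2 scale, as 68 of the 76 genes did. Pairs not described here were not counted by direction. MRPL36 and NDUFS6, a complex I subunit, also start 34 bases apart. MRPL36 had 189.6, 210.7 and 221.6 FPKM in 21% oxygen at 3 d and 95.61, 109.8 and, in the shallow library, 36.57 FPKM in 1% oxygen, and NDUFS6 had 450.9, 474.9 and 457.4 FPKM against 193.4, 242.2 and 128.8 FPKM, so that both genes fell. MRPL47 and NDUFB5 start 36 bases apart. Without the shallow library NDUFB5 had a difference of 0.01 (adjusted p 0.96), with 142.2, 157.5 and 170.0 FPKM in 21% oxygen and 151.6 and 162.7 FPKM in 1% oxygen, whereas MRPL47 fell by 0.65 on the log2 scale. Strand use in the counting is not given in the sources used here, and 26 of the 76 genes overlap a gene on the other strand. A gene on the same strand is overlapped by 13 of the 76, among them MRPS6, MRPL33 and MRPS17. Reads of both kinds of pairs could be split.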

How the data were processed

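PolyA RNA of 36 K562 libraries was sequenced by a Smart-seq2 protocol, per the labels' protocols. The authors' deposited gene table gives FPKM, made with TopHat and the Cufflinks suite including Cuffnorm, per the submitters' processing notes (versions, reference build and gene models: not given in the sources used here). No counts are in the table, so depth and counting error are unknown, and no column was left unused. The labels gave the groups.

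The analysis took log2(FPKM + 1). A single model over 12 group means (limma 3.58.1 in R 4.3.3, variance prior trended on level, 24 residual degrees of freedom) was fitted to the 10625 genes whose mean reached 1 FPKM, with two-sided moderated tests, Benjamini-Hochberg adjustment over all genes tested and a threshold of 0.05. It was checked on simulated data. Fold changes of low genes are understated by the pseudocount.

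The members, lists and rules were chosen with earlier results of these data known. Named were a fixed set (MRPL12, MRPL34, MRPS12, MRPL13, MRPL41, MRPS30, MRPL36, MRPS6, MRPS18A, MRPS18B, MRPS18C, DAP3, ICT1, TUFM, TFAM, LRPPRC), per comparison up to 4 largest falls and 2 largest rises past the threshold with the same direction without the shallow library, the 4 smallest adjusted p of the variation test, the 3 highest and 3 lowest levels, and of each other list up to 3 genes with the smallest adjusted p in the averaged 1% comparison; the text leaves out some and adds the neighbours NDUFB5 and SLC5A3, the latter chosen after values were seen, as was the 24 h fit without both replicate 3 libraries. Alternatives were the fit without the shallow library, a pseudocount of 0.1, no filter, a replicate block, quantile normalization, rescaling to TPM and leaving out each compared library. Promoters and transcripts came from RefSeq (GRCh38.p14) and GENCODE v29. Figures were drawn with matplotlib 3.10.9. Some marker genes are not reported here.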

Additional observations from a re-analysis of the deposited data

Results flagged for a closer look

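The difference between 1% and 21% oxygen was not the same at all times in 60 of the 76 genes, by a test of the variation itself (limma, moderated F test, adjusted p under 0.05). In that test 40.3% of all genes passed. Without the shallow library 70 of the 76 passed, where 63.3% of all genes did. The smallest adjusted p values were 5.56e-09 for MRPL34, 7.74e-08 for MRPS7, 1.19e-06 for MRPL18 and 1.88e-06 for MRPL16. Each of these 4 had its most negative difference at 3 d.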

How the results depend on the processing

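Counts below are of the 76 genes past the threshold in either direction. Without the shallow library they were 72 for 1% against 21% oxygen at 24 h (41 with it) and 19 at 6 d (8), where 38.7% and 29.9% of all genes passed without it. For 5% at 24 h, 3 d and 6 d they were 65, 61 and 51 (30, 36 and 25), where 28.3%, 45.1% and 36.9% of all genes passed. For 1% against 5% at 6 h, 3 d and 6 d they were 1, 33 and 26 (0, 54 and 4), where 1.27%, 26.9% and 27.5% passed. For 24 h, 3 d and 6 d against 6 h in 21% oxygen they were 4, 10 and 26 (0, 1 and 12), where 2.43%, 18.1% and 29.3% passed. The counts of 19 and 10 were below the share of all genes. In the comparison with 10, the balance went from 1 higher to 7 lower and 3 higher. Quantile normalization gave 11 and 13 for 1% at 24 h and 6 d, 3 for 5% at 24 h with more rises than falls, and 7 for 3 d against 6 h in 21% oxygen with more falls. Of all 10625 genes 1103, 1706, 293 and 848 passed there, in the same order, so that these counts were not far from the share of all genes. Rescaling to TPM gave 7 and 4 for 1% and 5% at 24 h with more rises than falls, 12 and 33 for 5% at 6 d and averaged, 32 and 1 for 1% against 5% at 3 d and 6 d, and 3 for 3 d against 6 h with more falls. In the same order 2374, 1721, 1035, 1885, 3259, 579 and 459 of all 10625 genes passed. With no filter 5% at 24 h gave 16 and 3 d against 6 h in 21% oxygen 0 by limma, where 666 and 365 of all 21455 genes passed. All other counts with no filter were within 1.5 times. The cause of these changes was not tested, beyond what leaving out single libraries shows.

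Leaving out 1 compared library at a time gave 15 to 46 for 1% at 24 h, 70 to 73 at 3 d, 4 to 6 at 6 d and 57 to 73 averaged; 0 to 36, 26 to 32, 11 to 21 and 45 to 55 for 5%; 30 to 58 and 0 to 5 for 1% against 5% at 3 d and 6 d; 0 to 2 and 5 to 10 for 3 d and 6 d against 6 h in 21% oxygen; and 52 to 73 for the variation over time. The counts of 15 and 0 at 24 h came without replicate 3 of 21% oxygen, where 6.05% and 0.442% of all genes passed. Of the other fits with 1 library left out, only the one without the shallow library had the share of all genes computed. At 6 d in 1% oxygen all counts with a library left out were below the 8 with all.

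Replicate numbers did not pair the libraries: over 198 pairs of the same number in different groups the correlation of deviations had a median of 0.00 (-0.31 to 0.40). With the number as a replicate block the counts were 39 for 1% and 27 for 5% at 24 h, and 73 and 36 at 3 d. There 1661, 914, 5625 and 2266 of all 10625 genes passed, in the same order. The count was 57 for the variation over time, where the share of all genes was not computed. The block changed no call of the 130 results for single genes. Changes of sign between 2 fits that both missed the threshold were not counted. Of the 130, 6 changed sign with the threshold passed in at least 1 of the 2 fits, all at 24 h after rescaling to TPM. In 1% oxygen they were MRPL34 (to 0.000794), MRPS30 (to 0.0236), MRPS6 (to 0.446) and MRPS18A (to 0.0662). In 5% oxygen they were MRPS30 (to 0.268) and MRPS18B (to 0.0739). Of these MRPS6 (limma, adjusted p 0.0381) and MRPS30 in 5% oxygen (0.0481) passed the threshold as rises. At 3 d in 1% oxygen the count in either direction lay between 62 and 73 under the alternatives run. There were 59 falls and 3 rises after quantile normalization, where 5528 of all 10625 genes passed. The 1% difference at 3 d was called in the same direction with and without the shallow library in 68 genes.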
